A study of Mus musculus with 6 samples.

Results

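The wild-type culture p56 was set against the cultures p42 and p43 of the same mouse embryonic stem (ES) cell line, and the genes outside chromosome 14 that set p56 apart are described here. The 3 libraries carry the numbers of their labels, and the labels do not say what the letter p stands for. Genes were kept when their sense-strand counts summed to 60 or more over the 3 libraries. Of 24054 gene rows, 11458 were kept, and 11026 of these lie on a chromosome other than 14. A further 402 lie on chromosome 14, and 30 have no single chromosome and were left out. At the limit itself, 20 genes had a sum of 60 and 25 genes had a sum of 59.

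The series examined Morc3, an ATPase studied for the silencing of endogenous retroviruses, by RNA-seq of 3 Morc3 knock-out (ko) and 3 wild-type ES cell libraries. All 6 came from feeder-independent cells grown on gelatin in serum with LIF, the cytokine that maintains ES cells, and RNA was depleted of ribosomal RNA. The wild-type libraries come from the line WT26 without any treatment, and the ko libraries come from KO27-1, KO27-2 and KO27-3, which are 3 single clones made from wt26 with Cas9. The ko clones appear here only as context. The study treats the wild-type libraries as biological replicates, and the labels do not say how far apart the cultures were grown. With a single p56 library the spread between such cultures was not measured, so that the comparison is descriptive and all intervals below cover counting error only.

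Mouse ES cells derive from the inner cell mass of the blastocyst and renew themselves while a network around Pou5f1, Sox2 and Nanog is active. In serum with LIF the cells of a culture are heterogeneous. Many germ cell genes are held silent in somatic cells and in most ES cells by promoter DNA methylation and by Polycomb complexes. Genes of the hypoxia response are induced by the factor Hif1 when oxygen is low, and p53 target genes by the tumour suppressor p53.

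The 3 libraries held 13619604 (p42), 14123131 (p43) and 13013286 (p56) sense gene counts, and the ko libraries held 10740618 to 11525164. Multimapping reads took 16.3%, 16.3% and 16.7% of the reads in p42, p43 and p56, and 15712, 15817 and 15594 genes had at least 1 count. Among the pluripotency genes, Pou5f1 had 1106, 1173 and 1149 CPM (counts brought to equal depth by TMM scaling) in p42, p43 and p56, and Sox2 had 624, 670 and 634 CPM. Nanog had 224, 207 and 278 CPM, a ratio of 1.29 (1.24 to 1.34), and p56 stood above all 5 other libraries. Of the fibroblast markers Postn, Lum and Dcn, all 3 had 0 counts in the wild-type libraries. Col3a1 had 1 count in all, Col1a1 had 3, 8 and 2 counts, and Thy1, which is not confined to fibroblasts, had 113, 126 and 118. Morc3 had 279, 274 and 303 CPM in the wild-type libraries and 78.5 to 139 CPM in the ko clones. The reference genes Actb and Hprt had ratios of 0.913 and 1.02 between p56 and p42 with p43 pooled.

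On chromosome 14 the median log2 ratio of p56 to p42 and p43 pooled was 0.36 over 402 genes, and 86.6% of these genes had a ratio above 1, against 47.5% outside the chromosome. The share of sense counts from chromosome 14 was 4.26% in p42, 4.29% in p43 and 5.42% in p56. In bulk samples, a change in the share of cells that express a gene and a change in the RNA per cell cannot be told apart. All genes below lie on other chromosomes. The median over the other chromosomes of the log2 ratio was -0.01.

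**Figure D1:**
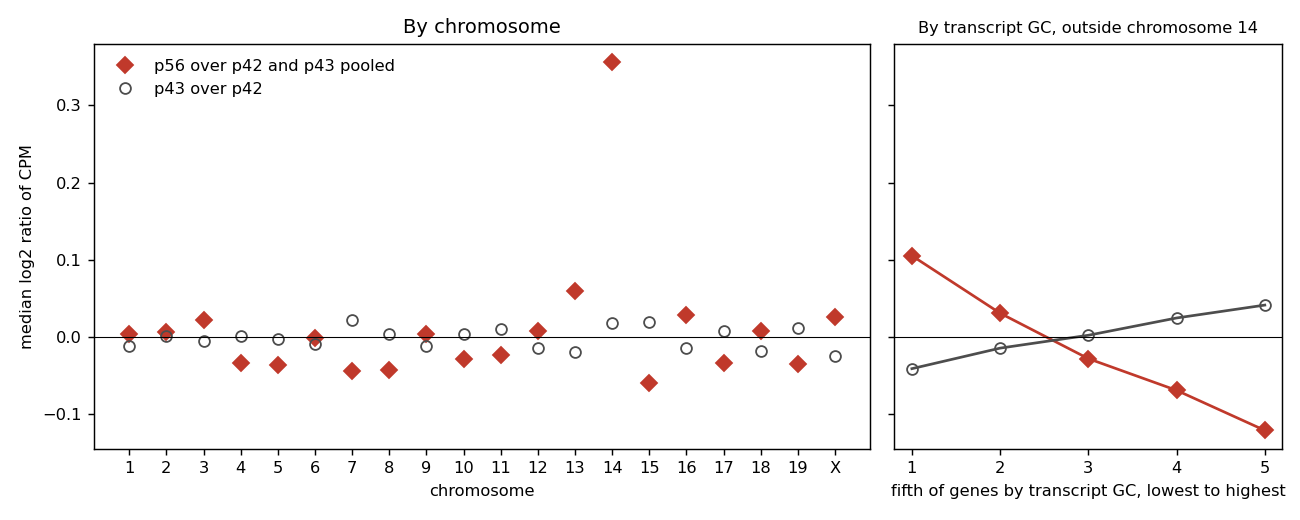
Left, median log2 ratio of CPM per chromosome for p56 over p42 and p43 pooled (red diamonds) and for p43 over p42 (open circles), chromosome Y left out. Right, the same medians in 5 equal groups of genes by the GC content of their transcripts, outside chromosome 14. Chromosome 14 stands at 0.36, and the other chromosomes shown lie between -0.06 and 0.06 for p56. Chromosome Y, with only 3 kept genes, had -0.42 for p56 and -0.15 for p43 over p42. The p56 median goes from 0.11 in the group of lowest GC to -0.12 in that of highest GC.

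Outside chromosome 14, p56 was further from p42 and p43 than these were from each other. The median absolute log2 difference of p56 to the mean of p42 and p43 was 0.15, and that of p43 to p42 was 0.08. A gene was called when p56 lay at least 2-fold above or below both p42 and p43 and when the exact 95% counting interval of its ratio to p42 and p43 pooled left out 1. By this rule, 34 genes were higher in p56 (0.308% of 11026) and 63 were lower (0.571%). With a 1.5-fold limit the numbers were 167 (1.51%) and 360 (3.27%). Between p43 and p42 alone, 8 genes were higher and 13 lower at 2-fold, against 66 and 112 between p56 and p42 and 59 and 104 between p56 and p43. Of the 97 called genes, 89 (91.8%) had a p56 level beyond all 5 other libraries, against 49.4% of all genes outside chromosome 14. Since the rule already placed p56 beyond p42 and p43, this adds only the ko clones. These 89 were 32 of the 34 higher and 57 of the 63 lower genes.

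**Figure D2:**
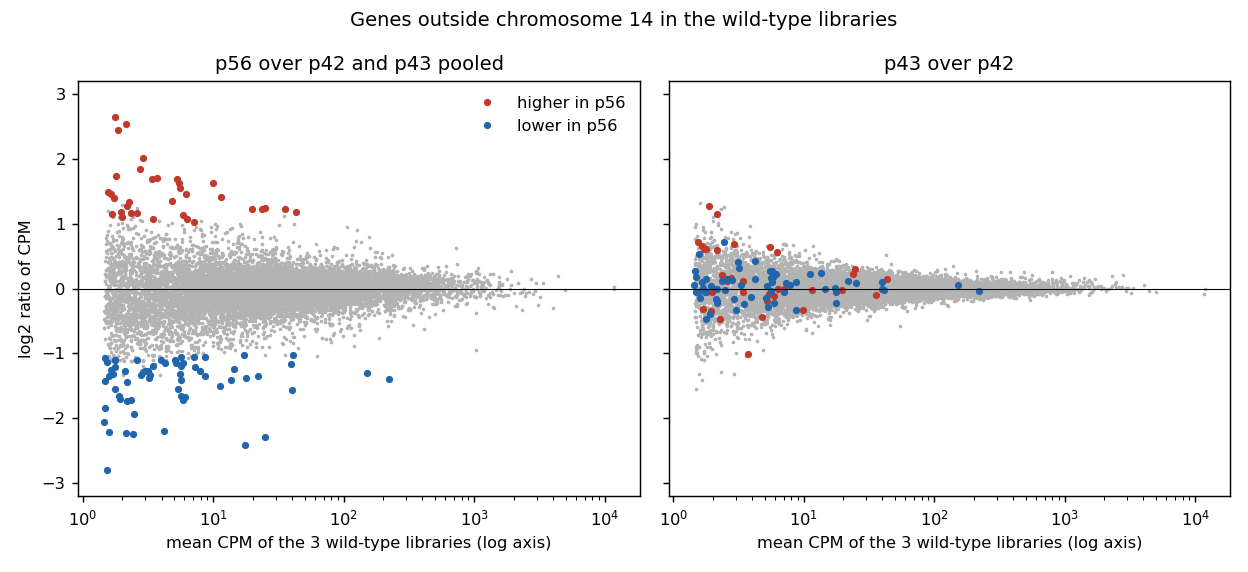
Each point is a gene outside chromosome 14, by its mean CPM over the 3 wild-type libraries (log axis) and its log2 ratio, for p56 over p42 and p43 pooled (left) and for p43 over p42 (right). Called genes are red (34 higher in p56) or blue (63 lower in p56) in both panels. On the left they lie beyond 1 or -1, since the rule chose them so, and mostly at low levels.

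Most called genes were weakly expressed. The median sum of counts over the 3 libraries was 136.5 for the higher and 163 for the lower genes, and 20 and 34 of them had under 200 counts. The ratio of p56 to p42 and p43 pooled ranged from 2.04 to 6.24 among the higher genes and from 0.144 to 0.492 among the lower genes. Nearest to the limit, Gpr83 (2.01-fold) and Fbn1 (2.02-fold) were inside and Trank1 (1.96-fold) and Zfp229 (1.95-fold) outside on the higher side. On the lower side Susd5 (1.997-fold) and Aire (1.989-fold) were just outside. These folds are to the nearer of p42 and p43.

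Base composition moved with the comparison. In 5 equal groups of genes by the GC content of their transcripts, the median log2 ratio of p56 was 0.11, 0.03, -0.03, -0.07 and -0.12 from low to high GC, while p43 over p42 went from -0.04 to 0.04. The lower genes had a median transcript GC of 53.3% and the higher genes of 50.1%, where all kept genes had 49.8%. With the median of each of 10 GC groups taken off, 35 genes were higher and 56 lower, of which 29 and 50 were among the called genes. Of the called genes named in the text, Gpr83, Sycp1, Tex11, Cdkn1a, Flywch2 and Ccdc159 lost their call with it. List medians are given below with and without this correction, which was chosen after seeing the data. The lists themselves were chosen with earlier results of these data known, so that their counts are description and no independent support.

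Of the 18 germline genes kept from the list, 2 were called higher in p56, Stra8 and Sycp1, and 0 lower. Of all genes outside chromosome 14, 0.308% were called higher and 0.571% lower. Hormad2, Sohlh2, Fmr1nb and Tex11, which are in no list, were also called higher and are known from germ cells. Cox6b2 and Dnah8, known from testis or sperm, were called lower. These genes outside the germline list were picked from the called genes, so their numbers are no balance between higher and lower. Of the 6 higher genes named here, the promoters of the 4 with an entry and bases outside exons are shown, so that their CG can be read. The window of Stra8 is annotated as exon and is not shown. The promoters are printed as the 250 bases before a RefSeq start (GRCm38.p6), less any bases annotated as an exon, with CG in capitals. Hormad2 lies at chr11:4441106-4441332 (minus strand), Sohlh2 at chr3:55181794-55182027 (plus strand), Fmr1nb at chrX:68761589-68761838 (plus strand) and Sycp1 at chr3:102936101-102936350 (minus strand).
Hormad2: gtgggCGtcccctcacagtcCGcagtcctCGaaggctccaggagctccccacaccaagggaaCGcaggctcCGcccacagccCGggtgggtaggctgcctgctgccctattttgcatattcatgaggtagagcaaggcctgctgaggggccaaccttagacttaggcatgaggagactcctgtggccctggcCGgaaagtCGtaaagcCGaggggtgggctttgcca
Sohlh2: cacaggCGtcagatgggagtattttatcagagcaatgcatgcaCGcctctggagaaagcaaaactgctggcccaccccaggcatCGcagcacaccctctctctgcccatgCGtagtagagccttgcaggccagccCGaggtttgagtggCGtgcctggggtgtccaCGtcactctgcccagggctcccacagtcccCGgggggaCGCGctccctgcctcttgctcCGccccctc
Fmr1nb: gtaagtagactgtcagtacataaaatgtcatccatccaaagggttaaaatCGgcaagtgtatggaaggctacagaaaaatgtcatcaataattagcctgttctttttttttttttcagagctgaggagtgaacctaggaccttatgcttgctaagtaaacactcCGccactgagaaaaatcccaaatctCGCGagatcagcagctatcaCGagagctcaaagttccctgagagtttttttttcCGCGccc
Sycp1: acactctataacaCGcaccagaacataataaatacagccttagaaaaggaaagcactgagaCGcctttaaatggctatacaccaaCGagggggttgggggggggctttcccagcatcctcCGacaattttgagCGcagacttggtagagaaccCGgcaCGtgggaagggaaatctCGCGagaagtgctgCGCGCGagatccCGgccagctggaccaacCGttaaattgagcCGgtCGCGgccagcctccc
In the full 250 bases, Hormad2 had 10 CG, Sohlh2 14, Sycp1 17 and Fmr1nb 7. The window of Stra8 had 5 but lies inside its gene span and wholly in exon bases. That of Hormad2 also reaches into its gene span. Over all 27025 promoters in the table the median was 6, and 91.7% held at least 1. DNA methylation itself was not measured in these libraries.

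Stra8, which is induced by retinoic acid and is needed to enter meiosis, had the largest ratio of all called genes (chromosome 6, 34920163 to 34939344, GRCm38). It held 7, 11 and 52 counts in p42, p43 and p56, or 0.511, 0.777 and 4.03 CPM. The ratio was 6.24 (95% counting interval 3.59 to 11.3), and the ko clones lay at 0.559 to 1.00 CPM. Thus p56 stood above all 5 other libraries.

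Hormad2, a protein of the unsynapsed meiotic chromosome axis, held 19, 22 and 68 counts in p42, p43 and p56, or 1.39, 1.55 and 5.27 CPM. Its ratio was 3.58 (2.40 to 5.41), against ko levels of 0.639 to 0.746 CPM. Sohlh2, a transcription factor of early germ cells, held 44, 40 and 125 counts, or 3.21, 2.83 and 9.69 CPM, with a ratio of 3.21 (2.42 to 4.29). Sycp1, the transverse filament of the synaptonemal complex, held 21, 17 and 40 counts, or 1.53, 1.20 and 3.10 CPM, with a ratio of 2.27 (1.42 to 3.64). In the counts that ignore strand, the log2 ratio of Sycp1 went from 1.18 to 0.57 and it was no longer called. In each of these genes p56 exceeded all 5 other libraries.

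Fmr1nb and Tex11, both testis genes on chromosome X, were chosen after their values were seen. Fmr1nb held 14, 14 and 43 counts in p42, p43 and p56, a ratio of 3.32 (2.01 to 5.54). Tex11 held 208, 264 and 517 counts, or 15.2, 18.6 and 40.1 CPM, a ratio of 2.36 (2.08 to 2.68). Tex11 is needed for meiotic crossovers, and it had the largest counts of the 6 genes.

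At 1.5-fold 6 genes of the germline list were higher, against 1.51% of all genes outside chromosome 14. Besides Stra8 and Sycp1 these were Syce1 with 132, 156 and 251 counts and Stk31 with 175, 190 and 304. They also included Dazl with 38, 46 and 69 and Mov10l1 with 96, 101 and 143. The list had a median log2 ratio of 0.45 (0.41 with the GC correction), where all genes outside chromosome 14 had -0.01, and 14 of the 18 lay above a ratio of 1. In 10 genes (55.6%) p56 exceeded all 5 other libraries, against 22.6% of all genes outside chromosome 14. The list median lay between 0.31 and 0.57 under the alternatives. Not all members followed. Tdrd12, of the piRNA pathway, had a ratio of 0.70 with 938, 862 and 587 counts, and Tex14 had a ratio of 0.85.

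**Figure D3:**
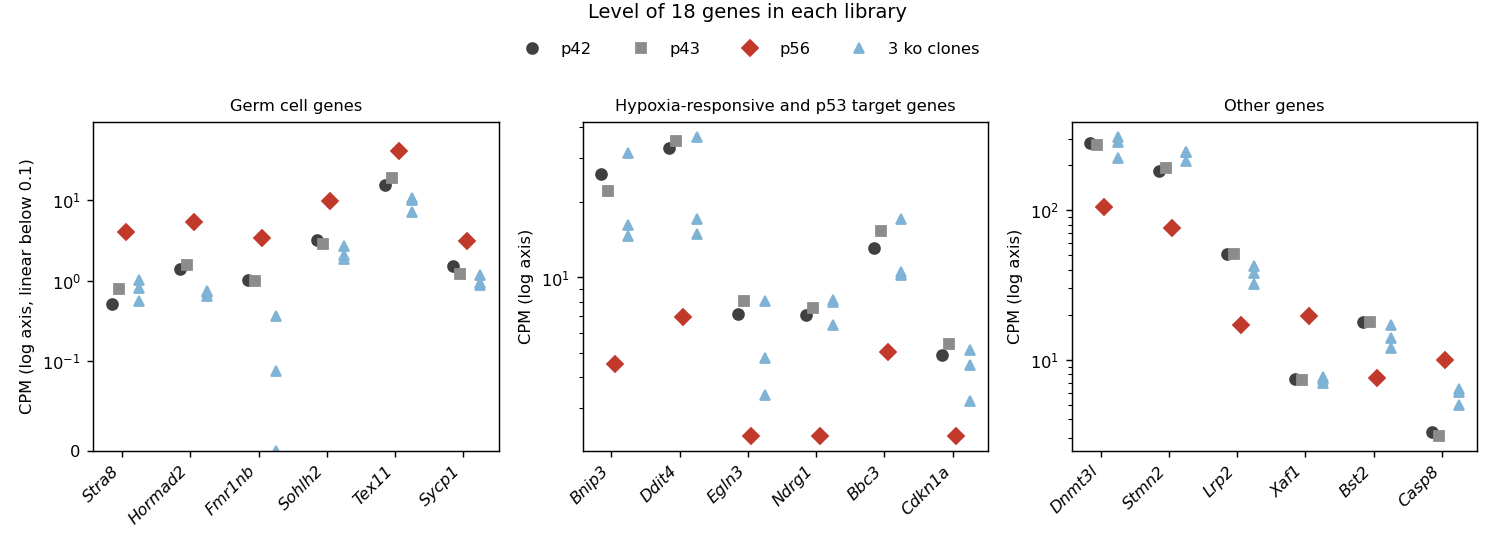
CPM of 18 called genes in each library, with p42 (dark circles), p43 (grey squares), p56 (red diamonds) and the 3 ko clones (blue triangles). The axes are logarithmic, and the left one is linear below 0.1. Stra8 in p56 stands at 4.03 CPM and Bnip3 at 4.49 CPM, and p56 is beyond the other 5 libraries in all 18 genes.

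The list of hypoxia-responsive and glycolysis genes held 4 genes called lower, the most of the 36 lists. All lists were chosen with earlier results of these data known. Promoters of 3 of the 4 genes are shown because Hif1 binds short elements whose core is ACGTG or GCGTG. They are the 250 bases before a RefSeq start (GRCm38.p6) without annotated exon bases, and the core is in capitals on either strand. Bnip3 lies at chr7:138909520-138909756, Ddit4 at chr10:59951835-59952020 and Egln3 at chr12:54203875-54204124, all on the minus strand.
Bnip3: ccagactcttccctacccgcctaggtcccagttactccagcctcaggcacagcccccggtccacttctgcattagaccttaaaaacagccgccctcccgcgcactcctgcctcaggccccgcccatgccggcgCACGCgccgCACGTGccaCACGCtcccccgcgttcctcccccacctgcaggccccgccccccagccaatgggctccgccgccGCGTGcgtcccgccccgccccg
Ddit4: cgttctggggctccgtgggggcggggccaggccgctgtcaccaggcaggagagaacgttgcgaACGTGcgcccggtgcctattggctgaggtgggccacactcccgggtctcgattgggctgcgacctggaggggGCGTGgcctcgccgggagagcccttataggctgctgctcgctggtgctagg
Egln3: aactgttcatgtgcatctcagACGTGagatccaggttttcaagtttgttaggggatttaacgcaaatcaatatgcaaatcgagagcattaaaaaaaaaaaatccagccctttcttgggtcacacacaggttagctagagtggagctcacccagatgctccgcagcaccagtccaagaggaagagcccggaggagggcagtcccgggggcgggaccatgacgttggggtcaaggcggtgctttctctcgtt
Counted on both strands, Bnip3 held 5 matches, Ddit4 2 and Egln3 1. Bnip3 also held CACGTG, which is counted on both strands because it reads the same. The core was found in 38.6% of all 27025 promoters in the table. Of the kept hypoxia-responsive and glycolysis genes, 22 of the 25 with a promoter there held it (88.0%). These were kept genes chosen for hypoxia response or glycolysis, while the table also holds genes not kept. The shares therefore cannot be compared, and they say nothing about p56. A match is a description of the letters and is no binding site.

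Bnip3, a mitochondrial protein that promotes mitophagy, held 354, 313 and 58 counts in p42, p43 and p56, or 25.8, 22.1 and 4.49 CPM. The ratio was 0.188 (0.141 to 0.246), and the ko clones lay at 14.6 to 31.6 CPM. Ddit4, a stress-induced inhibitor of mTORC1, held 453, 497 and 90 counts, or 33.1, 35.1 and 6.97 CPM, with a ratio of 0.205 (0.163 to 0.254). Both lay below all 5 other libraries. In both genes KO27-2 and KO27-3 also lay below p42, p43 and KO27-1. They had 14.6 and 16.2 CPM for Bnip3 and 14.9 and 17.2 CPM for Ddit4, where KO27-1 had 31.6 and 36.5 CPM.

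Egln3, a prolyl hydroxylase that marks Hif1 for degradation and is itself induced by Hif1, held 98, 114 and 30 counts in p42, p43 and p56, a ratio of 0.306 (0.201 to 0.449). Ndrg1, another hypoxia-induced gene, held 97, 107 and 30 counts, a ratio of 0.318 (0.209 to 0.467). The ko clones lay at 3.38 to 8.02 CPM for Egln3 and at 6.43 to 8.10 CPM for Ndrg1, and p56 lay at 2.32 CPM for both. Aldoc, an aldolase, was lower only at 1.5-fold, with 376, 311 and 178 counts.

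Of the 27 hypoxia-responsive and glycolysis genes kept, 4 were called lower and 0 higher, and 24 had a ratio below 1. Of all genes outside chromosome 14, 0.571% were called lower and 0.308% higher. The median log2 ratio was -0.28 (-0.25 with the GC correction), and between -0.30 and -0.25 under the alternatives. In 19 (70.4%) p56 was below all 5 other libraries, against 26.8% of all genes outside chromosome 14. The summed level of the list was 7392, 7356 and 6246 CPM in p42, p43 and p56. It was 7400, 6964 and 6887 CPM in KO27-1, KO27-2 and KO27-3. The glycolysis enzymes differed by less. Pgk1 had 3566, 3738 and 2545 counts and a ratio of 0.75, Ldha 0.82 and Gapdh 0.83. Hk2, Vegfa and Slc2a1, which are textbook Hif1 targets, had ratios of 0.91, 0.92 and 0.94, and Kdm3a had 1.07. The 3 genes with ratios above 1 were Kdm3a, Higd1a and Pfkfb4.

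Of 20 p53 targets kept, 2 were called lower and 0 higher, against 0.571% and 0.308% of all genes outside chromosome 14. Bbc3, which encodes the cell death activator Puma, held 180, 218 and 65 counts in p42, p43 and p56, or 13.1, 15.4 and 5.04 CPM. The ratio was 0.353 (0.267 to 0.459), with ko levels of 10.2 to 17.1 CPM. Cdkn1a, the cell cycle inhibitor p21, held 67, 77 and 30 counts, a ratio of 0.450 (0.293 to 0.670).

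In the p53 list 17 genes had a ratio below 1. The median log2 ratio was -0.34 (-0.36 with the GC correction) and lay between -0.37 and -0.34 under the alternatives. At 1.5-fold 6 were lower, against 3.27% of all genes outside chromosome 14. That limit added Plk2 (266, 277 and 138 counts), Trp53inp1 (1358, 1264 and 739), Eda2r (623, 652 and 366) and Psrc1 (1466, 1548 and 909). In 13 genes (65.0%) p56 was below all 5 other libraries, against 26.8% of all genes outside chromosome 14. The summed level of the list was 977, 989 and 776 CPM in p42, p43 and p56. It was 1030, 886 and 873 CPM in KO27-1, KO27-2 and KO27-3. Sesn1 and Perp went the other way, with ratios of 1.36 and 1.39. Cdkn2a, which is a cell cycle inhibitor but was in no list and was chosen after its values were seen, held 30, 30 and 12 counts.

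Of 29 targets of Atf4, the factor of the amino acid response, 0 were called at 2-fold. The shares over all genes outside chromosome 14 were 0.308% higher and 0.571% lower. All 29 targets had a ratio below 1 (26 with the GC correction). In 14 (48.3%) p56 was below all 5 other libraries, against 26.8% of all genes outside chromosome 14. The median log2 ratio was -0.21 (-0.19 with the GC correction). The summed level of the list was 7159, 7308 and 6346 CPM in p42, p43 and p56, and 6555 to 7626 CPM in the ko clones. Atf3 was lower at 1.5-fold with 215, 219 and 127 counts. Sesn2 had 1210, 1285 and 787 counts, a ratio of 0.68, and Asns, asparagine synthetase, had 9040, 9111 and 7306, a ratio of 0.87. Atf4 itself had a ratio of 0.95.

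Immediate early and ERK targets had a median log2 ratio of -0.20 over 18 genes (-0.15 with the GC correction), and Dusp4, a phosphatase of ERK, had 431, 456 and 219 counts. 0 of them were called at 2-fold, and 1 was lower at 1.5-fold. Over all genes outside chromosome 14, 0.308% were called higher and 0.571% lower at 2-fold, and 3.27% were lower at 1.5-fold. Unfolded protein response genes had a median of -0.02 over 15 genes (0.02 with the GC correction). Of 24 cholesterol synthesis and uptake genes, 0 were called at 2-fold, beside the 2-fold shares just given, and 18 had a ratio below 1. Their median was -0.12 (-0.10 with the GC correction). In 16 (66.7%) p56 was below all 5 other libraries, against 26.8% of all genes outside chromosome 14.

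**Figure D4:**
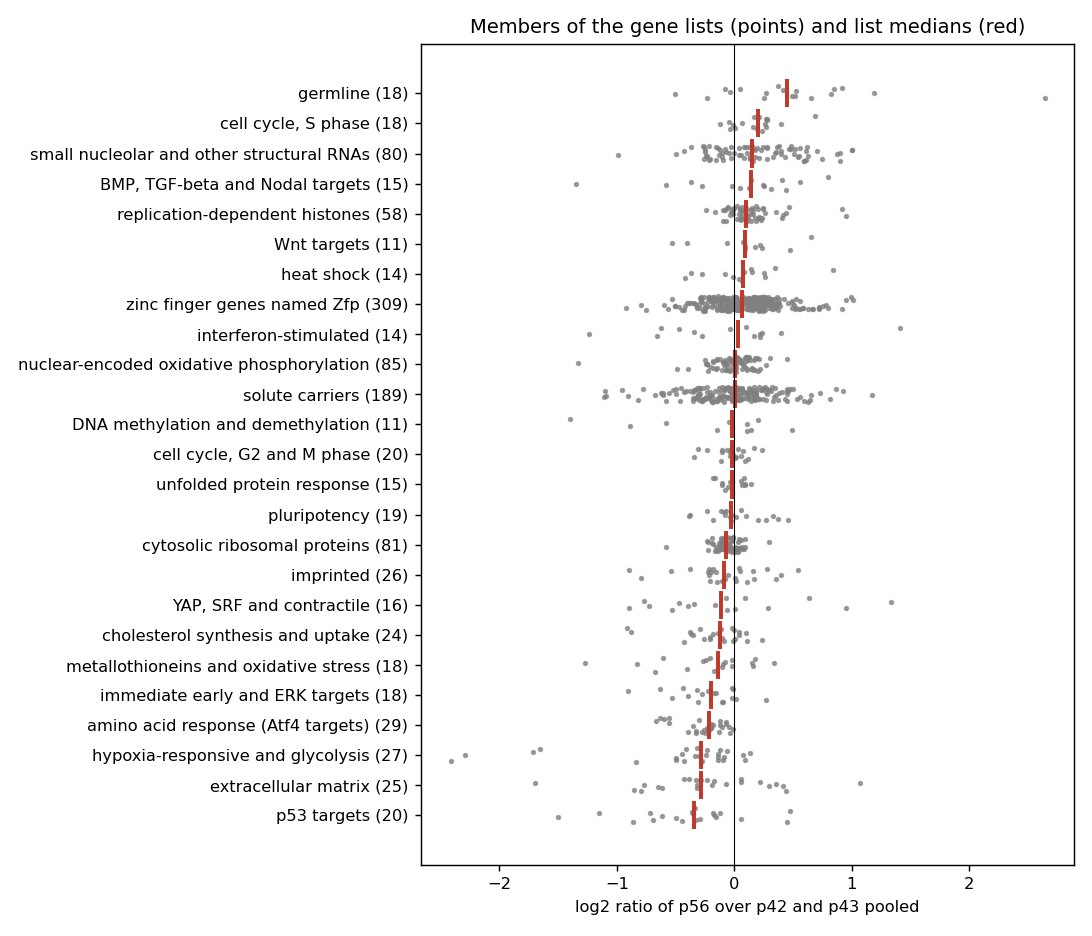
Log2 ratio of p56 over p42 and p43 pooled for each kept member (points) of the 25 lists with at least 10 kept genes, and the list median (red bars). Numbers of genes are in brackets. The germline list stands highest at 0.45 and the p53 list lowest at -0.34.

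Of the DNA methylation genes, 2 stood apart. Dnmt3l, the cofactor that stimulates the de novo methyltransferases, held 3850, 3870 and 1357 counts in p42, p43 and p56, or 281, 273 and 105 CPM. The ratio was 0.380 (0.358 to 0.402), and the ko clones lay at 224 to 307 CPM. It was the called gene with the most counts. Dnmt3a, a de novo methyltransferase, was lower at 1.5-fold with 1788, 2155 and 987 counts and a ratio of 0.540.

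The other methylation genes were closer to p42 and p43. Dnmt3b had a ratio of 0.97, Dnmt1 0.99, Uhrf1 1.08 and Tet1 0.91, and Tet2 had 1.41. The list of 11 had a median log2 ratio of -0.02 (0.07 with the GC correction), with 1 gene called lower and 0 higher. Of all genes outside chromosome 14, 0.571% were called lower and 0.308% higher. Dnmt3l and Aire overlap on chromosome 10 on opposite strands, with RefSeq starts 1323 bases apart, and Aire was just outside the limit. The libraries are strand-specific, and both genes were lower in p56.

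A pair of neighbouring genes on chromosome 17 was called lower together. 1700097N02Rik (30622441 to 30626905, minus strand) and Dnah8, a dynein heavy chain of sperm and cilia (30626935 to 30875762, plus strand), are transcribed away from each other, with starts 30 bases apart. The 29 bases between the starts (chr17:30626906-30626934, plus strand, GRCm38.p6) are shown because both genes start at their edges.
Between the starts: aacggctgagccaccgcccaacttccttt
1700097N02Rik held 99, 120 and 32 counts in p42, p43 and p56, a ratio of 0.315 (0.211 to 0.459), and 10.7 to 11.8 CPM in the ko clones. Dnah8, chosen after its values were seen, held 642, 714 and 279 counts, a ratio of 0.444 (0.389 to 0.506). Their intervals overlapped. Of the other called genes outside chromosome 14, the only pairs with lower coordinates under 100 kb apart were Lif with Hormad2, which went in opposite directions, and Cldn6 with Flywch2, which were both lower.

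Genes of interferon signalling split. Xaf1, an interferon-induced gene, held 102, 104 and 254 counts in p42, p43 and p56, or 7.44, 7.35 and 19.7 CPM, a ratio of 2.66 (2.21 to 3.21). Bst2, which tethers enveloped virus particles, held 246, 254 and 98 counts, a ratio of 0.423 (0.337 to 0.526). Ifitm1 was lower at 1.5-fold with 978, 968 and 572 counts. The list of 14 had a median log2 ratio of 0.03 (0.02 with the GC correction), with 7 genes above and 7 below 1.

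Casp8, a caspase of cell death signalling, held 45, 44 and 128 counts in p42, p43 and p56, a ratio of 3.11 (2.35 to 4.12). The ko clones lay at 4.99 to 6.43 CPM and p56 at 9.92 CPM. Ceacam20, a cell adhesion molecule, held 7, 16 and 62 counts, a ratio of 5.82 (3.55 to 9.84). Fbp2, a fructose bisphosphatase of gluconeogenesis, held 6, 15 and 53 counts, a ratio of 5.45 (3.23 to 9.51). Against p42 alone, without p43, the log2 ratio of Ceacam20 went from 2.54 to 3.23 and that of Fbp2 from 2.45 to 3.23. Against p43 alone, without p42, Ceacam20 fell to 2.09 and Fbp2 to 1.95.

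Msln, mesothelin, held 15, 25 and 75 counts in p42, p43 and p56, a ratio of 4.05 (2.72 to 6.10). Calml4 held 89, 73 and 232 counts, a ratio of 3.09 (2.52 to 3.80), and the ko clones lay at 1.86 to 2.19 CPM, against 6.49 and 5.16 CPM in p42 and p43. Galnt6, an enzyme of O-glycosylation, held 36, 58 and 127 counts, a ratio of 2.92 (2.22 to 3.85). Mep1b, a membrane protease, held 27, 27 and 81 counts, a ratio of 3.24 (2.27 to 4.66).

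Pou4f2, a transcription factor of retinal ganglion cells, held 39, 20 and 89 counts in p42, p43 and p56, a ratio of 3.26 (2.32 to 4.61). It reached up to 19.6 CPM in the ko clones, all above p56 at 6.90 CPM. Abca1, an exporter of cholesterol that was chosen after its values were seen, was the other higher gene below the ko clones, with 5.25, 5.23 and 10.7 CPM in the wild-type libraries and 75.6 to 79.7 CPM in the ko clones.

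Syt5, a synaptotagmin of vesicle release, had the smallest ratio with 30, 30 and 4 counts in p42, p43 and p56, at 0.144 (0.0380 to 0.388). Kif1a, a motor of axonal transport, held 66, 92 and 16 counts, a ratio of 0.219 (0.122 to 0.366). Stmn2, which regulates microtubules in neurons, was well counted at 2514, 2712 and 983, a ratio of 0.406 (0.379 to 0.435), and the ko clones lay at 211 to 246 CPM against 76.2 CPM in p56.

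Lrp2, the endocytic receptor megalin, held 701, 720 and 222 counts in p42, p43 and p56, or 51.2, 50.9 and 17.2 CPM. The ratio was 0.337 (0.291 to 0.389), with ko levels of 32.3 to 42.5 CPM. Amn, amnionless, which forms an endocytic receptor with cubilin, held 26, 28 and 6 counts, a ratio of 0.240 (0.0843 to 0.557), but p56 did not lie below all ko clones. In the primitive endoderm list 5 of 6 kept genes had a ratio below 1, with a median log2 ratio of -0.15 (-0.08 with the GC correction). Lamb1 had 1604, 1777 and 1045 counts, and the defining factors Gata6 and Sox17 had at most 8 counts in any wild-type library.

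Ripply1, a repressor in somite formation, held 34, 58 and 9 counts in p42, p43 and p56, a ratio of 0.211 (0.0936 to 0.419). Cacna1h, a T-type calcium channel, held 43, 38 and 8 counts, a ratio of 0.213 (0.0890 to 0.440). The 6 kept genes of the neuroectoderm list had a median log2 ratio of 0.08 (0.17 with the GC correction), and 0 were called. Over all genes outside chromosome 14, 0.308% were called higher and 0.571% lower.

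Signalling and matrix genes differed in parts. Id2, a target of BMP signalling, held 166, 137 and 55 counts in p42, p43 and p56, a ratio of 0.392 (0.289 to 0.524), whereas Id1 and Id3 had ratios of 1.24 and 1.32. Inhbb, a subunit of activin, was higher at 1.5-fold with 1741, 1770 and 2821 counts. The list of 15 BMP, TGF-beta and Nodal targets had a median log2 ratio of 0.14 (0.26 with the GC correction).

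In the extracellular matrix list of 25 genes, Col9a3 was lower with 34, 36 and 10 counts in p42, p43 and p56, a ratio of 0.308 (0.142 to 0.601), and Fbn1, fibrillin, was higher with 33, 37 and 68 counts, a ratio of 2.10 (1.48 to 2.97). Fn1, fibronectin, was lower at 1.5-fold with 6434, 6531 and 3917 counts. The list median was -0.29, and -0.16 with the GC correction.

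Of the YAP, SRF and contractile genes, Anxa1 was higher with 24, 18 and 49 counts in p42, p43 and p56, a ratio of 2.52 (1.63 to 3.90). S100a6, a calcium-binding protein, was higher at 1.5-fold with 1072, 1158 and 1992 counts, and Cyr61 was lower with 214, 192 and 101. Past neither limit were Lamb1, Skil and Ndufv3 with ratios of 0.67, 0.67 and 0.71, Tet3 and Slc18b1 with 0.67 and 0.47, Lama1 with 0.90 and Cox7a1 with 1.36. Mt3, a metallothionein, held 38, 35 and 14 counts, a ratio of 0.414 (0.216 to 0.740), and Gstm1 and Mt1 were lower at 1.5-fold. Cox6b2, a testis form of a cytochrome oxidase subunit, held 46, 52 and 18 counts, a ratio of 0.397 (0.226 to 0.660). Slc43a3, a solute carrier, held 21, 25 and 48 counts, a ratio of 2.25 (1.47 to 3.45).

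Of 18 S phase genes, 14 had a ratio above 1 (17 with the GC correction), with a median log2 ratio of 0.20 (0.17 with the GC correction). In 12 (66.7%) p56 was above all 5 other libraries, against 22.6% of all genes outside chromosome 14. Of the 18 S phase genes 0 were called at 2-fold, beside 0.308% higher and 0.571% lower of all genes outside chromosome 14. Ccne2, cyclin E2, was higher at 1.5-fold with 697, 708 and 1047 counts. The 20 G2 and M phase genes had a median of -0.02 (-0.01 with the GC correction). The 58 replication-dependent histone genes had a median of 0.10 (0.19 with the GC correction). The 80 small nucleolar and other structural RNAs had 0.15 (0.15 with the GC correction), with 7 higher and 1 lower at 1.5-fold. At that limit 1.51% of all genes outside chromosome 14 were higher and 3.27% lower. Of 19 pluripotency genes 0 were called at either limit, with a median of -0.03 (0.04 with the GC correction). The lists of 2-cell-stage and Hox genes had 0 kept genes.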

How the data were processed

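The authors aligned strand-specific, ribosome-depleted RNA-seq reads to mm10 with STAR, per the submitters' processing notes, and deposited raw counts per gene, 1 file per library, with no normalization. The gene annotation is not given in the sources used here. STAR counts only reads that map to 1 place and overlap 1 gene. The sense column was used, without the first 4 lines of unassigned reads. The opposite-strand column served only for 1 result in the closing section.

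Library sizes were scaled by TMM (edgeR 4.0.16, R 4.3.3) with p42 as reference, and ratios with exact Clopper-Pearson 95% intervals were computed with scipy 1.17.1. PCR reads without molecular identifiers are not independent molecules, so that the intervals cover counting error only. Positions came from RefSeq (GRCm38), in which the current symbol was found for 22539 gene rows, a former symbol for 1371 and a GENCODE vM21 entry for 23, while 121 rows were not found. Transcript GC came from GENCODE vM21. Promoter sequences came from RefSeq. Ndrg1 and Tex11 had no promoter sequence there.

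The members and the 36 gene lists were chosen with earlier results of these data known. Named genes are the 12 higher and 12 lower called genes whose interval bound nearest to 1 lay farthest from 1, each called gene of a list, the 3 largest changes of each list with a called gene, and Morc3, Actb and Hprt. The call rule was tested on simulated counts that held counting error only, so the spread between cultures was not covered. edgeR and DESeq2 1.42.0 fits on all 6 libraries, in which p56 is assumed to vary like the others, served as alternatives only. The genes just inside the limit on the lower side are not reported here.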

Additional observations from a re-analysis of the deposited data

Results flagged for a closer look

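Counts on the opposite strand were not used above. Among 839 genes outside chromosome 14 with at least 60 such counts in the wild-type libraries, 1 was higher and 11 were lower in p56 by the 2-fold rule. The higher one was Igf2bp3, chosen after its values were seen, with 16, 13 and 32 opposite-strand counts in p42, p43 and p56, a ratio of 2.30 (95% counting interval 1.35 to 3.95), and 16 to 17 in the ko clones.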

How the results depend on the processing

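No paired analysis was possible because p56 is a single library and no numbers join it to the others. The numbers of called genes stayed within 1.5 times under RLE and total scaling, TMM without chromosome 14, a 99% interval, counts that ignore strand and the GC correction chosen after seeing the data. Counts that ignore strand ended the calls of 2 higher genes, Sycp1 and Abca1, and 5 lower genes. The called genes were 62 higher and 110 lower with a count sum of 30 or more, 14 and 29 with 200 or more, and 139 and 156 with 1 or more, by construction. The 1.5-fold rule gave 167 and 360. The 6-library fits at an adjusted p under 0.01 gave 150 and 170 by edgeR and 70 and 97 by DESeq2, and 49 and 29 of the 97 called genes were among them. Against p42 or p43 alone, 59 to 66 genes were higher and 104 to 112 lower. Since the rule compares p56 with both, this could end few calls, which were those of Ccdc159 without p42 and Lif without p43, both lower genes.

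The median absolute log2 difference was 0.163, 0.136 and 0.200 with count sums of 30, 200 and 1 or more, 0.139 with the GC correction and 0.153 to 0.167 when p42 or p43 was left out. The chromosome 14 median of 0.36 was 0.361 by RLE, 0.338 by library totals, 0.363 by TMM without chromosome 14, 0.351, 0.359 and 0.341 with count sums of 30, 200 and 1 or more and 0.352 with the GC correction. When p42 or p43 was left out it was 0.355 to 0.358. The causes of these shifts were not tested.

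With 1 library of p56, the spread between cultures of this kind is unknown, and most called genes rest on under 200 counts in all.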
